A study of Mus musculus with 23 samples.

Results

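The 10 iron handling genes described here encode the proteins that store, release, export and import iron, recycle it from haem, and sense it. They were chosen by symbol from the deposited gene tables, as Fth1, Ftl1, Ncoa4, Slc40a1, Tfrc, Slc11a1, Slc11a2, Hmox1, Ireb2 and Aco1. Each symbol matched 1 identifier, so they make up 10 of 53090 genes in the tables. All 10 passed the filter on low counts.

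Messenger RNA was sequenced, after poly(A) selection, in microglia, immune cells that live in the brain, from female C57BL/6 mice. The labels give the groups Y (young, n = 7), Y-re (young, repopulated, n = 3), O (old, n = 5) and O-re (old, repopulated, n = 8), with no genetic alteration named. Microglia need signals through the receptor CSF1R, and in the treatment protocol they were depleted with PLX5622, an inhibitor of CSF1R, at 1200 ppm in AIN-76A chow. Control chow without the drug is described, but the labels do not say which groups ate it. The age of the mice, the duration of the diet and the interval between depletion and sampling are details not given in the sources used here. Titles of all 23 libraries, Y and O included, carry the prefix PLX, so groups were taken from the group label. RNA came from cells sorted by flow cytometry, per the extraction protocol, while the growth protocol describes magnetic CD11b selection and culture. The labels do not say whether each library is a separate animal, so p-values measure the spread between these libraries.

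Iron enters most cells bound to transferrin through the transferrin receptor, leaves endosomes through the transporter DMT1, is stored inside ferritin shells, and leaves the cell only through ferroportin. Macrophages and microglia also take up haem from dying cells, and haem oxygenase frees its iron. Iron regulatory proteins bind hairpins in messenger RNA, the iron-responsive elements, when iron is scarce. Binding in a 5′ UTR blocks translation, and binding in a 3′ UTR protects the message from decay, so that much of this control acts on translation, which RNA sequencing does not measure.

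The iron-responsive elements of 4 members are shown because they are the sites at which the products of 2 other members, Ireb2 and Aco1, act. The search, on the sense strand only of protein-coding GENCODE M21 mRNAs, was for a bulged C, then NNNNN, then the loop CAGTGN. The 5 bases before the loop had to pair with the 5 bases after it, G with T pairs allowed. Each line gives 30 bases 5′ to 3′ from GRCm38, written as DNA, with the 6-base loop in capitals.
Fth1, 5′ UTR, chr19:9982732-9982761, plus strand: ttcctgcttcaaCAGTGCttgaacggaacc
Ftl1, 5′ UTR, chr7:45459778-45459807, minus strand: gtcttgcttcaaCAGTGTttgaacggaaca
Slc40a1, 5′ UTR, chr1:45925464-45925493, minus strand: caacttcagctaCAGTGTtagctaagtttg
Tfrc, 3′ UTR, chr16:32631219-32631248, plus strand: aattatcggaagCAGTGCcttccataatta
Tfrc, 3′ UTR, chr16:32631598-32631627, plus strand: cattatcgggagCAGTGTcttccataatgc
Tfrc, 3′ UTR, chr16:32631663-32631692, plus strand: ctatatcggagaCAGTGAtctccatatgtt
Tfrc, 3′ UTR, chr16:32631710-32631739, plus strand: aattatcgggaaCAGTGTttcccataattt
The 3 members with a match in the 5′ UTR are the storage and export genes, and the 4 matches of Tfrc lie in its 3′ UTR. The letters with this pairing were in the 5′ UTR of 30 of 20916 protein-coding genes (0.14%) and in the 3′ UTR of 128 of 21707 (0.59%). They were not found in mRNAs of the other 6 members, which says only that these letters are not there.

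Total counts ranged from 43.66 M to 58.19 M per library, where M is 1e06 counts, and the lowest count of any member in any library was 601, for Slc40a1. Y replicate 3 had the fewest genes with a count, 16399. Library numbers in the titles fall into a run from 1 to 11 (3 Y, 2 O and 5 O-re) and a run from 12 to 24 (4 Y, 3 Y-re, 3 O and 3 O-re); what the numbers stand for is not given. All 8 microglia marker genes were detected, and their summed level was 23400 to 28770 CPM (counts per 1e06, scaled by TMM factors between libraries) in Y, 21070 to 24420 in Y-re, 9467 to 23770 in O and 8759 to 27050 in O-re. The 8 monocyte markers, none at 0 in any group, summed to 273 to 1654 CPM in Y, 623 to 1111 in Y-re, 492 to 4487 in O and 364 to 7562 in O-re. The 8 markers of border-associated macrophages, none at 0 in any group, summed to 58.7 to 229 CPM in Y, 299 to 417 in Y-re, 188 to 902 in O and 73.2 to 1261 in O-re. O replicate 3 and O-re replicates 6 and 8 had microglia sums under 10000 CPM, so results are also given without these 3 libraries. In such samples fewer microglia and less RNA of these markers per microglia cannot be told apart.

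Fth1 (ENSMUSG00000024661.6, chromosome 19) encodes ferritin heavy chain, the subunit that oxidises iron for storage. In Y libraries it ranged from 1781 to 2447 CPM with a median of 2037, and in the 3 Y-re libraries it was 3210, 3451 and 2920 CPM. The 5 O libraries had 2097, 3468, 5349, 2813 and 4252 CPM, and the O-re libraries ranged from 2339 to 5305 CPM with a median of 3829. All Y-re libraries, 4 of 5 O libraries and 7 of 8 O-re libraries lay above every Y library, while O and O-re spanned nearly the same range. Means were 2063 ± 210 CPM in Y (SD, n = 7), 3194 ± 266 in Y-re (SD, n = 3), 3596 ± 1263 in O (SD, n = 5) and 3843 ± 885 in O-re (SD, n = 8).

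Fth1 was higher in O than in Y, with a log2 fold change of 0.80 ± 0.19 (SE; 1.74-fold, edgeR's quasi-likelihood test, adjusted p = 0.0201). Here and below p was adjusted over all 18720 genes tested, and a gene was called, or passed, at an adjusted p under 0.05. That call rested on single libraries: without O replicate 3 the log2 fold change was 0.61, and across fits that left out 1 library it ranged up to 0.97, with adjusted p between 0.00295 and 0.138. Leaving out O replicate 5 also ended the call. Fth1 was also higher in O-re than in Y, by 0.90 ± 0.17 (SE, edgeR's adjusted p = 0.00163). Leaving out the 3 libraries low in microglia markers, these values were 0.61 in O versus Y (adjusted p = 0.0888) and 0.78 in O-re versus Y (adjusted p = 0.00321). In Y-re versus Y the value was 0.63 ± 0.22 (SE), which did not pass (edgeR's adjusted p = 0.155) although the groups did not overlap. It passed with voom (0.60, adjusted p = 0.00261) and with only these groups in the fit (0.64, adjusted p = 0.00271). O-re differed from O by 0.10 ± 0.18 (SE, edgeR's adjusted p = 0.937).

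Ftl1 (ENSMUSG00000050708.16, chromosome 7) encodes ferritin light chain, which helps iron mineralise inside the shell. Its Y libraries ranged from 2127 to 2886 CPM with a median of 2527, and the Y-re libraries had 4139, 3053 and 2954 CPM. The O libraries had 2360, 3720, 4818, 3231 and 3887 CPM, and the O-re libraries ranged from 2134 to 5390 CPM with a median of 3943. The pattern over groups was that of the heavy chain: all Y-re, 4 of 5 O and 7 of 8 O-re libraries were above every Y library. Ftl1 rose in O-re versus Y by a log2 fold change of 0.65 ± 0.17 (SE, edgeR's adjusted p = 0.0126), and without the 3 libraries low in microglia markers it was 0.49 (adjusted p = 0.0535). In O versus Y the log2 fold change was 0.53 ± 0.19 (SE) and did not pass (edgeR's adjusted p = 0.143), but it passed without O replicate 1 (0.68, adjusted p = 0.0411). That value was 0.41 without O replicate 3 (adjusted p = 0.554) and 0.40 without the 3 libraries low in microglia markers (adjusted p = 0.397). Y-re versus Y gave 0.44 ± 0.22 (SE, edgeR's adjusted p = 0.343) without overlap of the groups, and 0.41 with voom (adjusted p = 0.0334) and 0.45 with only these groups in the fit (adjusted p = 0.0451). It was 0.27 without Y-re replicate 1 (adjusted p = 0.743). O-re versus O gave 0.12 ± 0.19 (SE, edgeR's adjusted p = 0.918).

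Ferritin genes have processed copies across the genome, so their counts are uncertain. Of 13 relatives of Fth1 in the tables, 2 had a mean count of at least 10, and all relatives together held at most 0.144% of the family's counts in any library. Of 18 relatives of Ftl1, 7 had a mean count of at least 10. They held between 2.831% and 10.718% of the family's counts, with a median of 3.875%. The most counted were Gm15590, whose transcript is 99.1% identical to that of Ftl1 over 552 aligned bases, with a mean count of 3623, and Ftl1-ps1, 99.6% identical over 910 bases, with a mean count of 2665. Reads of 50 nt cannot always be placed between such copies, and how RSEM divided them was not tested. Summing each ferritin gene with its relatives changed no call: Ftl1 differed by 0.65 in O-re versus Y (edgeR's adjusted p = 0.0114) and by 0.52 in O versus Y (adjusted p = 0.151).

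Ncoa4 (ENSMUSG00000056234.14, chromosome 14) encodes the cargo receptor that carries ferritin to lysosomes, where its iron is released. It had 123 to 154 CPM in Y, 153 to 186 in Y-re, 134 to 150 in O and 120 to 171 in O-re, and only Y-re and O did not overlap, a pair that no contrast compared. No comparison of Ncoa4 passed. Its log2 fold changes were 0.01 ± 0.08 (SE) in O versus Y and 0.24 ± 0.10 in Y-re versus Y, with adjusted p of 0.97 and 0.241.

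**Figure D1:**
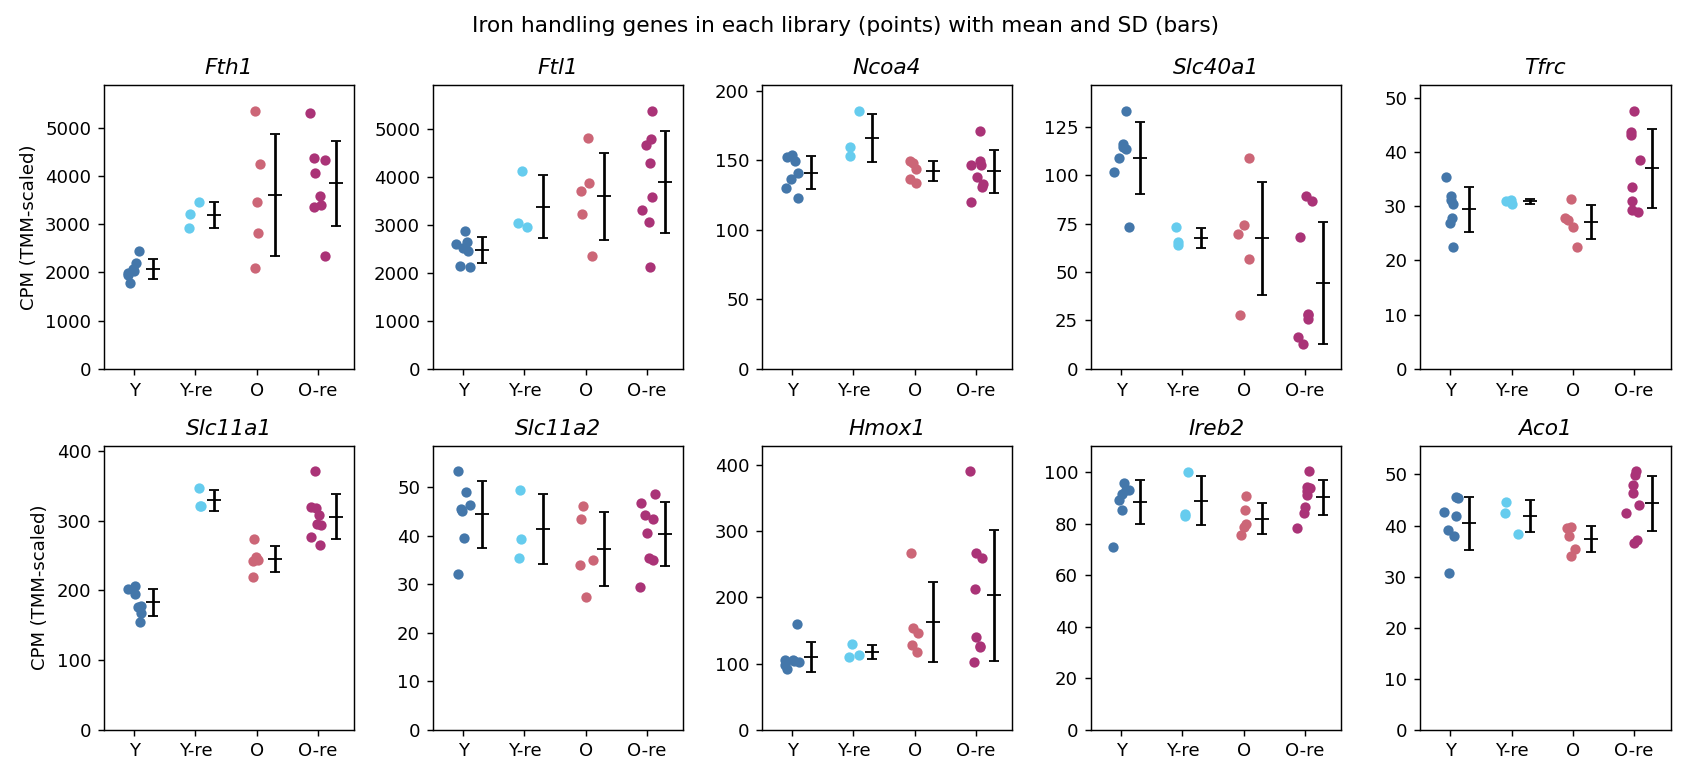
Level of each iron handling gene in each library, in CPM on linear axes that start at 0; points are libraries of the groups Y, Y-re, O and O-re, and the bars give the mean with the SD. Slc11a1 lies above all Y libraries in every Y-re, O and O-re library, while Slc40a1 spreads from 12.6 to 89.2 in O-re. For Y-re, 5.97% of all genes are separated upward from Y in this way, and for O and O-re the share was not counted.

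Slc40a1 (ENSMUSG00000025993.10, chromosome 1) encodes ferroportin, the iron exporter. In Y it ranged from 73.4 to 133 CPM with a median of 114, and in Y-re it was 73.5, 64.1 and 65.6 CPM. The O libraries had 109, 69.4, 28.0, 74.3 and 56.8 CPM, and the O-re libraries ranged from 12.6 to 89.2 CPM with a median of 28.3. Relative to its mean it had the widest spread of the members within O-re, and 6 of 8 O-re libraries lay below every Y library. Means were 109 ± 18.3 CPM in Y (SD, n = 7) and 44.4 ± 31.6 in O-re (SD, n = 8).

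Slc40a1 fell in O-re versus Y, with a log2 fold change of -1.30 ± 0.35 (SE, edgeR's adjusted p = 0.0163). In edgeR with all libraries it was the only member lower in any comparison at this threshold. It was at -1.003 (adjusted p = 0.0287) without the 3 libraries low in microglia markers. The log2 fold changes were -0.69 ± 0.40 (SE) in O versus Y, -0.69 ± 0.48 in Y-re versus Y and -0.60 ± 0.38 in O-re versus O, and edgeR's adjusted p was 0.441, 0.558 and 0.648. O-re versus O was at -0.37 without O replicate 1 (adjusted p = 0.946) and at -1.54 within library numbers 12 to 24 (adjusted p = 0.0101). Y-re versus Y passed with voom (-0.756, adjusted p = 0.0405) and with only these groups in the fit (-0.675, adjusted p = 0.014). It did not pass within library numbers 12 to 24 (-0.727, edgeR's adjusted p = 0.134). Within library numbers 1 to 11 the O-re versus Y value was -0.75 (adjusted p = 0.493), and within 12 to 24 it was -2.64 (adjusted p = 8.67e-05), more than 1.5 times the value in all libraries.

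Tfrc (ENSMUSG00000022797.15, chromosome 16) encodes the transferrin receptor. It ranged from 22.4 to 35.4 CPM in Y with a median of 30.4, and was 30.99, 31.17 and 30.44 CPM in Y-re. The O libraries had 22.5, 31.3, 27.8, 26.2 and 27.5 CPM, and the O-re libraries ranged from 28.9 to 47.6 CPM with a median of 36.0. In 5 of 8 O-re libraries Tfrc was above every O library, yet the groups overlapped. The log2 fold change of O-re versus O was 0.45 ± 0.13 (SE) and did not pass (edgeR's adjusted p = 0.13), whereas DESeq2 gave 0.44 (adjusted p = 0.0497) and voom with sample quality weights 0.48 (adjusted p = 0.0351). O-re versus Y gave 0.33 ± 0.11 (SE, edgeR's adjusted p = 0.0536), and when single libraries were left out it ranged from 0.27 to 0.40, with adjusted p between 0.0145 and 0.121. Without the 3 libraries low in microglia markers, O-re versus O was at 0.34 (edgeR's adjusted p = 0.385). O-re versus Y was then at 0.21 (adjusted p = 0.271).

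Slc11a1 (ENSMUSG00000026177.11, chromosome 1) encodes NRAMP1, which moves divalent metals out of the phagosome of macrophages. In Y it ranged from 155 to 207 CPM with a median of 177, and in Y-re it was 347, 321 and 321 CPM. The O libraries had 242, 248, 273, 220 and 243 CPM, and the O-re libraries ranged from 265 to 371 CPM with a median of 302. Neither Y-re, O nor O-re overlapped Y, and 7 of 8 O-re libraries were above every O library. Every Y-re library was above every Y library in 5.97% of all genes. The like shares for O and O-re were not counted, so how unusual their separation is cannot be said. Means were 183 ± 19.1 CPM in Y (SD, n = 7), 330 ± 15.0 in Y-re (SD, n = 3), 245 ± 19.1 in O (SD, n = 5) and 306 ± 32.5 in O-re (SD, n = 8).

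Slc11a1 was the member that passed in each of the 3 comparisons with Y, which share the Y libraries. Its log2 fold change was 0.42 ± 0.09 (SE, edgeR's adjusted p = 0.00936) in O, 0.85 ± 0.10 (SE, adjusted p = 0.000112) in Y-re and 0.74 ± 0.08 (SE, adjusted p = 1.4e-05) in O-re. The O versus Y call was lost without O replicate 3, where the value was 0.38 (adjusted p = 0.0532), and without the 3 libraries low in microglia markers (0.38, adjusted p = 0.0505). Without those 3 libraries the Y-re and O-re values were 0.85 (adjusted p = 0.000201) and 0.76 (adjusted p = 3.12e-05).

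Between the old groups, O-re versus O, Slc11a1 had a log2 fold change of 0.32 ± 0.09 (SE), which did not pass (edgeR's adjusted p = 0.107). DESeq2 gave 0.31 (adjusted p = 0.0311) and voom 0.31 (adjusted p = 0.0446). The difference between repopulation in old and in young mice was -0.53 ± 0.13 (SE, unadjusted p = 0.000492) and did not pass in edgeR (adjusted p = 0.336), while DESeq2 gave -0.54 (adjusted p = 0.0413) and voom -0.58 (adjusted p = 0.0168).

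Slc11a2 (ENSMUSG00000023030.16, chromosome 15) encodes DMT1, which carries ferrous iron out of endosomes. It had 32.0 to 53.3 CPM in Y, 35.4 to 49.4 in Y-re, 27.4 to 46.2 in O and 29.4 to 48.7 in O-re, and all groups overlapped. None of its comparisons passed: O versus Y gave -0.25 ± 0.14 (SE, edgeR's adjusted p = 0.424) and O-re versus Y -0.14 ± 0.13 (SE, adjusted p = 0.508).

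Hmox1 (ENSMUSG00000005413.8, chromosome 8) encodes haem oxygenase 1, the inducible enzyme that opens the haem ring. In Y it ranged from 92.2 to 160 CPM with a median of 104, the highest being Y replicate 3, and in Y-re it was 129, 112 and 110 CPM. The O libraries had 117, 154, 268, 146 and 128 CPM, and the O-re libraries ranged from 103 to 390 CPM with a median of 176. O-re replicates 5, 6, 7 and 8, at 213 CPM or more, were above every Y library, and the other O-re libraries, at 140 CPM or less, lay within the Y range. Hmox1 rose in O-re versus Y by a log2 fold change of 0.89 ± 0.24 (SE, edgeR's adjusted p = 0.0174). Without the 3 libraries low in microglia markers it was 0.56 (adjusted p = 0.0601), and without Y replicate 3 it was 1.0 (adjusted p = 0.011). In O versus Y it was 0.56 ± 0.27 (SE, edgeR's adjusted p = 0.319), and 0.31 without O replicate 3 (adjusted p = 0.858).

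Ireb2 (ENSMUSG00000032293.8, chromosome 9) and Aco1 (ENSMUSG00000028405.9, chromosome 4) encode the iron regulatory proteins IRP2 and IRP1, the latter also an aconitase when it holds an iron-sulfur cluster. Ireb2 had 70.7 to 95.9 CPM in Y, 82.8 to 99.9 in Y-re, 75.4 to 90.5 in O and 78.2 to 100.2 in O-re. Aco1 had 30.7 to 45.6 CPM in Y, 38.4 to 44.6 in Y-re, 34.0 to 39.6 in O and 36.6 to 50.6 in O-re. Neither regulator passed in any comparison, and all their groups overlapped. The largest of their log2 fold changes between 2 groups was 0.25 ± 0.10 (SE), for Aco1 in O-re versus O (edgeR's adjusted p = 0.313).

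Levels were compared between genes only as deposited TPM, which divides by transcript length. Both ferritin genes stood far above the rest, at a median over 23 libraries of 6159 TPM for Fth1 (3807 to 11010) and 6099 for Ftl1 (4721 to 9904). Their order was not fixed, since Fth1 was above Ftl1 in 8 of 23 libraries. Slc11a1 followed at 236 TPM and Hmox1 at 138, with Slc11a1 higher in 18 of 23 libraries. Ncoa4 had 74.6 TPM, Slc40a1 36.1, Ireb2 27.3, Slc11a2 25.99, Aco1 18.2 and Tfrc 12.4. Slc40a1 was above Ireb2 in 17 of 23 libraries and Ireb2 above Slc11a2 in 13 of 23, so these neighbours were not separated beyond their spread. Ncoa4 was above Slc40a1, and Aco1 above Tfrc, in 23 of 23 libraries.

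**Figure D2:**
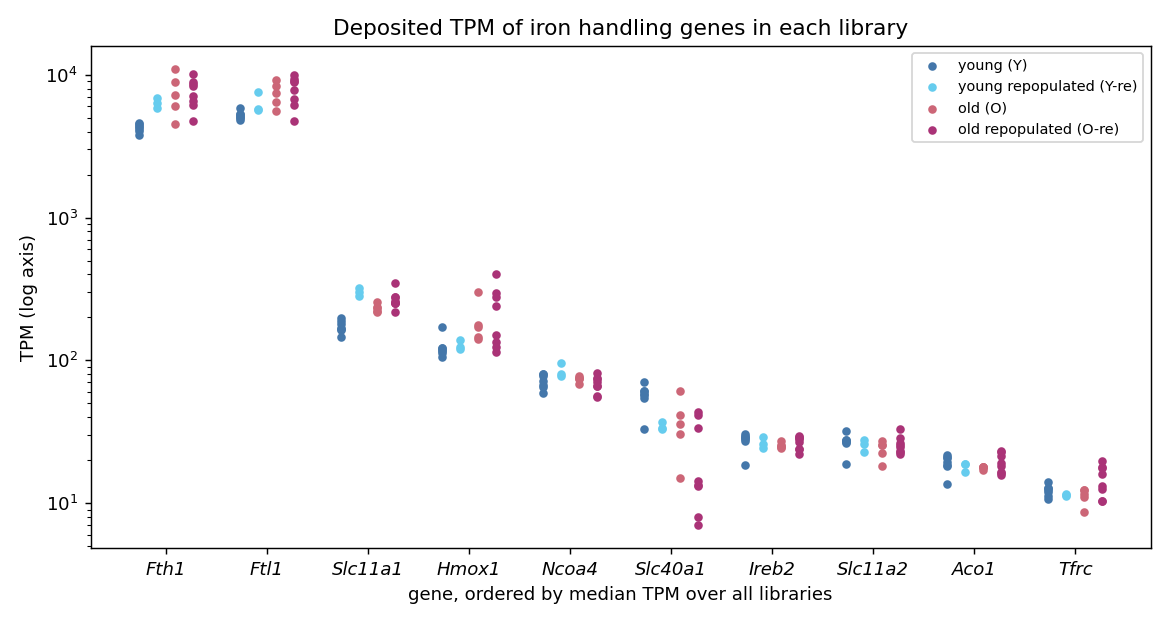
Deposited TPM on a log axis for each member, ordered by its median over 23 libraries; points are libraries, coloured by group. Ferritin heavy and light chains lie at 3807 TPM or more, Tfrc is lowest at a median of 12.4 TPM, and Slc40a1 reaches down to 6.99 TPM in an O-re library.

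Set side by side, the comparisons differed in how many members passed and in how many genes passed at all. In O versus Y, 2.83% of all 18720 genes were called, and 2 of 10 members were called, both higher, where 2.6% of all genes were higher. In Y-re versus Y, 1.34% of all genes and 1 of 10 members, Slc11a1, were called; 0.828% of all genes were higher. In 3 of 10 members (Fth1, Ftl1 and Slc11a1) every Y-re library was above every Y library, as it was in 5.97% of all genes. In O-re versus Y, 15.2% of all genes and 5 of 10 members were called, with Fth1, Ftl1, Slc11a1 and Hmox1 higher and Slc40a1 lower. Of all genes, 9.29% were higher and 5.92% lower in that comparison. The median log2 fold change in O-re versus Y was 0.23 over the members and -0.02 over all genes. In O versus Y these medians were -0.05 and -0.01, and in Y-re versus Y 0.08 and -0.04.

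In O-re versus O, in O-re versus Y-re and for the difference between repopulation in old and young mice, edgeR called no member. In the first of these, 0.278% of all genes were called (0.0641% higher and 0.214% lower), and 3 of 10 members (Tfrc, Slc11a1 and Aco1) had an unadjusted p under 0.05, beside 10.4% of all genes. DESeq2 and voom each called 2 members there, Tfrc and Slc11a1, beside 1.67% and 2.21% of all genes. In O-re versus Y-re, edgeR called 0 of 18720 genes (0%), with 2183 at an unadjusted p under 0.05, among them Hmox1 (0.79 ± 0.33, SE) and Ncoa4 (-0.23 ± 0.09, SE), both at an adjusted p of 0.404. DESeq2 called 92 genes there and voom 3189, and voom's calls included Hmox1 (0.83, adjusted p = 0.0107) and Slc40a1 (-1.21, adjusted p = 0.0123). For the difference between repopulation in old and young mice, edgeR called 0 genes (0%), with 1542 at an unadjusted p under 0.05. DESeq2 called 46 genes and voom 151, of which Slc11a1 was the only member.

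**Figure D3:**
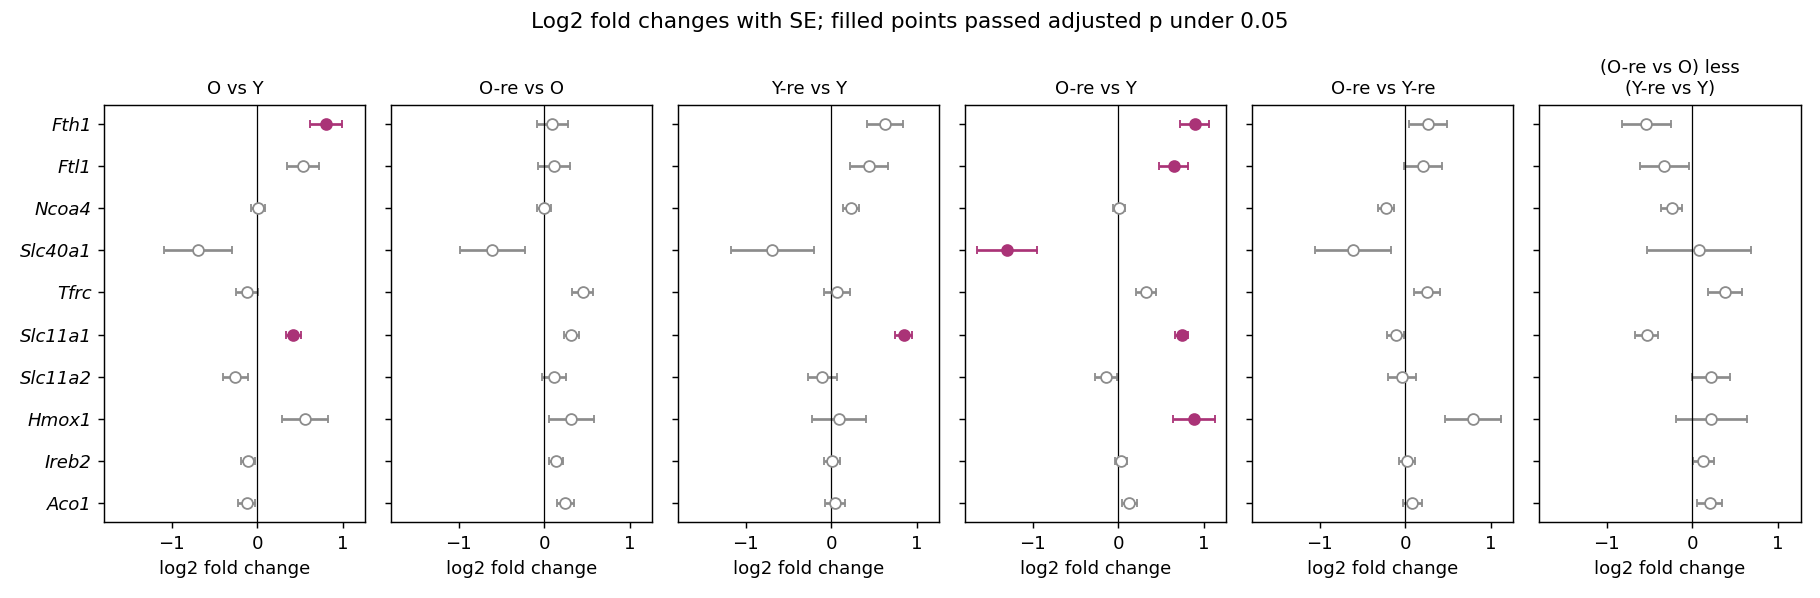
Log2 fold changes of the 10 members in 6 contrasts, with bars of 1 SE; filled points passed an adjusted p under 0.05 in edgeR's quasi-likelihood test over all 18720 genes. Members pass in the panels O vs Y (2), Y-re vs Y (1) and O-re vs Y (5), all of which share the Y libraries, and in no other panel. Of all genes, 2.83%, 1.34% and 15.2% pass in these panels, 0.278% in O-re vs O and 0% in the remaining ones.

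Each comparison was repeated within the runs of library numbers and without Y replicate 3. Leaving out Y replicate 3 left 2 members called in O versus Y, 1 in Y-re versus Y and 5 in O-re versus Y. Of all 18621 genes tested in that fit, 629, 341 and 2975 were called, in the same order. In O-re versus Y within numbers 1 to 11, none of the 10 members was called, and 2 genes were called in all. The log2 fold changes of the 5 members called in all libraries kept their signs there, at 0.73 for Fth1, 0.46 for Ftl1, 0.71 for Slc11a1, 0.36 for Hmox1 and -0.75 for Slc40a1, with edgeR's adjusted p between 0.173 and 0.695. Within numbers 12 to 24 the values were 1.15, 0.96, 0.76, 1.49 and -2.64, and all 5 were called, where 41.1% of 17186 genes were called. In O versus Y, Fth1 was at 0.43 within the lower and 1.01 within the higher numbers (edgeR's adjusted p = 1 and 0.00193), and Slc11a1 at 0.35 and 0.49 (adjusted p = 1 and 0.00376). All Y-re libraries have high numbers, and within 12 to 24 Slc11a1 rose by 0.94 (adjusted p = 0.000343) and Fth1 by 0.66 (adjusted p = 0.0285).

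Marker sums of microglia and of other cells are set beside several members here, library by library, and no association was tested. O-re replicates 2, 5, 6, 7 and 8 had microglia sums from 8759 to 15270 CPM and monocyte sums from 1493 to 7562 CPM. In those libraries Slc40a1 was 28.5, 28.0, 16.5, 25.6 and 12.6 CPM, and Fth1 was 3347, 4364, 5305, 4338 and 4068 CPM. O-re replicates 1, 3 and 4 had microglia sums of 27050, 19850 and 24280 CPM and monocyte sums of 364, 1101 and 885 CPM. Slc40a1 was 86.6, 67.9 and 89.2 CPM there, and Fth1 was 2339, 3590 and 3392 CPM. Fth1 overlapped between these O-re libraries and the former ones, since replicate 2 lay below replicates 3 and 4. O replicate 3, with a microglia sum of 9467 and a monocyte sum of 4487 CPM, had the lowest Slc40a1 and the highest Fth1, Ftl1, Hmox1 and Slc11a1 of its group. The part of these other cells in the results for Fth1, Ftl1, Slc40a1, Hmox1 and Slc11a1 was not tested.

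The highest O-re value of Slc11a1, 371 CPM, belonged to replicate 1, whose monocyte sum of 364 CPM was the lowest of its group. In O the highest value, 273 CPM, belonged to replicate 3, whose monocyte sum of 4487 CPM was the highest of its group. The Y-re libraries, at 321 to 347 CPM of Slc11a1, had monocyte sums of 623 to 1111 CPM, within the range of Y. Their sums for border-associated macrophages were 299 to 417 CPM, above all Y libraries, but the genes of that list did not move together. Mrc1 was at 97.23 to 127.5 CPM in Y-re and 22.09 to 58.72 CPM in Y. Cd163 was at 4.999 to 5.703 CPM in Y-re and 4.458 to 20.16 CPM in Y, with medians of 5.673 and 15.27 CPM. Ccr2, a monocyte receptor, was at 24.9 to 122 CPM in Y-re and 4.2 to 45.8 CPM in Y. Ly6c2, another monocyte marker, was at 7.615 to 26.24 CPM in Y-re and 0.241 to 7.756 CPM in Y. These genes do not stand for the list, since the sum of all 8 monocyte markers had a median of 732.2 CPM in Y-re and 890.6 CPM in Y. The part of other cells in the Y-re values was not tested.

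**Figure D4:**
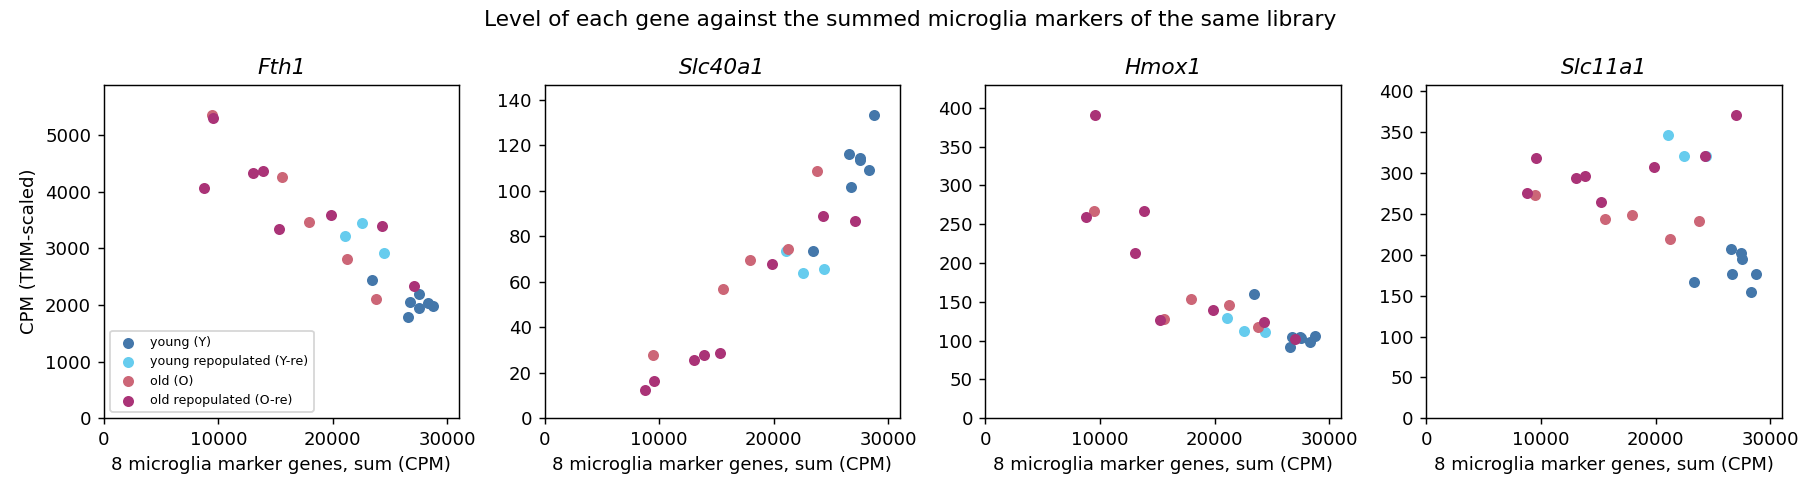
Level of Fth1, Slc40a1, Hmox1 and Slc11a1 in each library (vertical axes, CPM, from 0) against the summed level of 8 microglia markers in the same library (horizontal axes, in CPM); points are coloured by group. Libraries with sums under 10000 CPM have Fth1 of 4068 to 5349 and Slc40a1 of 12.6 to 28.0. The library highest in Slc11a1, O-re replicate 1, has a microglia sum of 27050, and the O library highest in Slc11a1, replicate 3, has 9467.

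Other genes of iron and haem metabolism were taken from 7 lists, of which 64 of 75 genes were tested. In O versus Y, 1 of 64 rose and 1 fell, beside 2.83% of all genes called (2.6% higher and 0.235% lower). The rise was in Slc7a11, which encodes the cystine and glutamate exchanger that feeds glutathione synthesis, by a log2 fold change of 2.36 ± 0.59 (SE, edgeR's adjusted p = 0.0306), from 3.65 ± 1.79 CPM in Y to 18.8 ± 12.2 in O (SD, n = 7 and 5). The fall was in Slc39a8, encoding the zinc and iron importer ZIP8, by -0.56 ± 0.15 (SE, edgeR's adjusted p = 0.0488). Neither call held throughout: over 23 fits that each left out 1 library, that of Slc7a11 was lost in 8 (1.98 to 2.58, adjusted p up to 0.167) and that of Slc39a8 in 15 (-0.62 to -0.45, up to 0.226). For Slc39a8, close to the threshold in all libraries, these included fits that left out a Y-re or O-re library, groups outside this comparison. No gene of the lists passed in O-re versus O or in Y-re versus Y, where 0.278% and 1.34% of all genes were called.

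In O-re versus Y, 13 of 64 listed genes rose and 4 fell, beside 15.2% of all genes called (9.29% higher and 5.92% lower). The median log2 fold change was 0.11 over these 64 genes and -0.02 over all genes. Without the 3 libraries low in microglia markers 5 rose and 3 fell, within library numbers 1 to 11 none passed, and within 12 to 24 it was 25 higher and 13 lower of 62. The share of all genes called was 8.23%, 0.0107% and 41.1% in these 3 fits.

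Of 11 tested genes of iron uptake, 3 rose and 1 fell in O-re versus Y, beside 9.29% of all genes higher and 5.92% lower. Slc39a8 fell by -0.72 ± 0.13 (SE, edgeR's adjusted p = 0.00157), from 38.5 ± 6.06 CPM in Y to 23.4 ± 4.51 in O-re (SD, n = 7 and 8). Steap3, the ferric reductase of endosomes, rose by 1.49 ± 0.37 (SE, edgeR's adjusted p = 0.0101), from 4.32 ± 1.18 to 12.1 ± 6.91 CPM. Lcn2, encoding lipocalin 2, which binds iron-loaded siderophores and is also on the list of neutrophil markers, rose by 1.86 ± 0.51 (SE, edgeR's adjusted p = 0.018). Its call was lost without the 3 libraries low in microglia markers (1.67, adjusted p = 0.0607) and within library numbers 1 to 11 and 12 to 24 (adjusted p = 0.416 and 0.0506). Neutrophil marker sums were 10.1 to 78.7 CPM in Y and 63.9 to 303 CPM in O-re, and their part in this rise was not tested. Steap4, a metalloreductase at no more than 0.35 CPM in any Y library, was called at 2.83 ± 0.96 (SE, edgeR's adjusted p = 0.0477), but in 17 of 23 fits that left out 1 library the call was lost (1.96 to 3.13, adjusted p up to 0.161).

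Of 6 tested storage genes and chaperones, 1 rose in O-re versus Y, beside 9.29% of all genes. It was Fbxl5, the iron-sensing part of a ubiquitin ligase that marks IRP2 for degradation, at 0.47 ± 0.16 (SE, edgeR's adjusted p = 0.0479). The call was lost in 15 of 23 fits that left out 1 library (0.41 to 0.56, adjusted p up to 0.104). Of 3 tested genes of export and hepcidin control, 1 fell, beside 5.92% of all genes. It was Hfe, the protein altered in hereditary haemochromatosis, at -0.48 ± 0.13 (SE, edgeR's adjusted p = 0.0152), from 103 ± 11.9 CPM in Y to 73.9 ± 18.2 in O-re (SD, n = 7 and 8). Hfe was at -0.38 (adjusted p = 0.0672) without the 3 libraries low in microglia markers.

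Of 10 tested genes of haem turnover and export, 4 rose and 1 fell in O-re versus Y, while 0 of 9 haem synthesis genes were called. Over all genes, 9.29% rose and 5.92% fell in that comparison. Blvrb, which encodes a biliverdin reductase acting downstream of haem oxygenase, rose by 0.78 ± 0.15 (SE, edgeR's adjusted p = 0.00235), from 15.7 ± 1.30 CPM in Y to 26.9 ± 8.75 in O-re (SD, n = 7 and 8). Slc48a1, the transporter that brings haem out of lysosomes, rose by 0.60 ± 0.16 (SE, edgeR's adjusted p = 0.0118), and Abcg2, an efflux pump that carries porphyrins, fell by -0.85 ± 0.23 (SE, adjusted p = 0.015). Hp, encoding haptoglobin, the plasma protein that binds haemoglobin, rose by 2.85 ± 0.80 (SE, edgeR's adjusted p = 0.0195), but without O-re replicate 6 it was at 2.12 (adjusted p = 0.0616). Without the 3 libraries low in microglia markers Blvrb was at 0.76 (adjusted p = 0.0092), Abcg2 at -0.65 (0.0312), Slc48a1 at 0.49 (0.0593) and Hp at 1.83 (0.103).

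Of 14 tested genes of mitochondrial iron and iron-sulfur clusters, 2 rose and 0 fell in O-re versus Y, beside 15.2% of all genes called and 9.29% higher. Bola3, which helps place iron-sulfur clusters on mitochondrial enzymes, rose by 0.62 ± 0.15 (SE, edgeR's adjusted p = 0.00802), from 5.81 ± 0.52 CPM in Y to 8.94 ± 2.08 in O-re (SD, n = 7 and 8). Slc25a28, encoding the mitochondrial iron importer mitoferrin 2, was called at 0.50 ± 0.16 (SE, edgeR's adjusted p = 0.0382), and the call was lost in 8 of 23 fits that left out 1 library (0.43 to 0.56, adjusted p up to 0.0863).

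Of 11 tested genes that bear on lipid peroxides, in either direction, or are targets of the factor NRF2, 3 rose and 1 fell in O-re versus Y. Beside them, 9.29% of all genes rose and 5.92% fell. Slc7a11 rose by 2.89 ± 0.56 (SE, edgeR's adjusted p = 0.00215), from 3.65 ± 1.79 CPM in Y to 27.1 ± 27.5 in O-re (SD, n = 7 and 8). Gclm, a subunit of the enzyme that starts glutathione synthesis, rose by 0.69 ± 0.16 (SE, edgeR's adjusted p = 0.00559), and Aifm2, whose product FSP1 limits lipid peroxides with coenzyme Q, by 1.93 ± 0.49 (SE, adjusted p = 0.0117). Lpcat3, an acyltransferase that places polyunsaturated fatty acids in phospholipids, fell by -0.73 ± 0.11 (SE, edgeR's adjusted p = 0.000448), from 104 ± 12.2 CPM in Y to 62.8 ± 10.7 in O-re. Without the 3 libraries low in microglia markers Slc7a11 was at 1.84 (adjusted p = 0.0092), more than 1.5 times below its value in all libraries, and Aifm2 at 1.33 (0.0592).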

How the data were processed

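Per the labels, poly(A) RNA of 23 microglia libraries was sequenced as stranded single reads of 50 nt. The submitters' processing notes name FastQC 0.11.5, STAR, RSEM, limma and the build GRCm38. Annotation, other versions and strand setting are not given in the sources used here. RSEM's expected counts per gene and TPM are the values the authors deposited. Expected counts, of which 87.26% were whole within 1e-06, were rounded. TPM served only to set genes side by side.

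In R 4.3.3, edgeR 4.0.16 kept 18720 genes with filterByExpr and scaled libraries by TMM. Its quasi-likelihood test was applied to 1 model of all 23 libraries with 6 contrasts, and Benjamini-Hochberg adjustment ran over all genes kept. A gene was called at an adjusted p under 0.05. CPM denotes TMM-scaled counts per 1e06 counts, errors of log2 fold changes are SE, and the code was tested on simulated data.

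Members and lists were chosen with earlier results of these data known. All 10 members were named. Pathway genes were named where called, at most 4 per list and comparison, taken by smallest adjusted p. Alternatives were RLE and upper-quartile factors, no filter, DESeq2 1.42.0, voom with sample quality weights (limma 3.58.1), only the groups compared, library number as a term, fits within library numbers 1 to 11 and 12 to 24, summed ferritin relatives and leaving out each library. Leaving out 3 libraries low in microglia markers was chosen after seeing the data. Iron-responsive elements were searched in GENCODE M21 mRNAs (GRCm38), in which 49035 of the 53090 identifiers have the same version.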

Additional observations from a re-analysis of the deposited data

Results flagged for a closer look

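In 30 sets of 4 to 10 libraries, 1 per member and group, 3 had a library far from the others by Dixon's criterion, which chance meets in about 1 of 20 sets. Hmox1 was 160.2 CPM in Y replicate 3, where the next highest Y library had 105.8 CPM. Ireb2 was 70.73 CPM in the same library, where the next lowest Y library had 85.08 CPM. Hmox1 was 267.5 CPM in O replicate 3, where the next highest O library had 153.8 CPM. Y replicate 3 is the library with the fewest genes with a count, and O replicate 3 is 1 of the 3 low in microglia markers.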

How the results depend on the processing

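The number of members called in edgeR was 2 in O versus Y, 0 in O-re versus O, 1 in Y-re versus Y, 5 in O-re versus Y, 0 in O-re versus Y-re and 0 for the difference between repopulation in old and young mice. In the same order, 2.83%, 0.278%, 1.34%, 15.2%, 0% and 0% of all genes were called. With voom the member counts were 5, 2, 4, 6, 2 and 1, beside 2363, 413, 2574, 6646, 3189 and 151 of all 18720 genes. DESeq2 gave 2 in O-re versus O, beside 1.67% of all genes, and 1 for the difference, beside 0.246%. Library number as a term gave 1 in O-re versus O, beside 0.609%, and only the groups compared gave 4 in Y-re versus Y, beside 7.5%. Within library numbers 1 to 11 the counts were 0 in O versus Y and 0 in O-re versus Y, beside 0.00533% and 0.0107% of all genes. Within 12 to 24 the counts were 6, 3, 2 and 7 in the first 4 comparisons, 5 in O-re versus Y-re and 3 for the difference. The shares of all genes called there were 15.7%, 12.7%, 9.3%, 41.1%, 36.3% and 8.87%. Without the 3 libraries low in microglia markers the counts were 0 in O versus Y and 3 in O-re versus Y, beside 0.806% and 8.23% of all genes. When single libraries were left out, counts ranged from 0 to 3 in O versus Y and from 5 to 6 in O-re versus Y, and stayed at 0, 1, 0 and 0 in the others. In these fits the share of all genes called ranged from 0.536% to 5.06% in O versus Y and from 10.5% to 25.7% in O-re versus Y. The cause of these differences was not tested.

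The log2 fold changes that turned sign under an alternative lay between -0.254 and 0.117 with all libraries, and none was called under either setting. With upper-quartile factors, Ncoa4 was at -0.039 in O versus Y and -0.054 in O-re versus Y, and Ireb2 at -0.018 in Y-re versus Y, -0.034 in O-re versus Y and -0.017 in O-re versus Y-re. With voom, Ncoa4 was at -0.025 in O versus Y and -0.06 in O-re versus Y, Ireb2 at -0.102 in Y-re versus Y and -0.024 in O-re versus Y, Tfrc at -0.009 and Aco1 at -0.054 in Y-re versus Y, and Slc40a1 at -0.341 for the difference. With library number as a term, Y-re versus Y gave -0.042 for Tfrc, -0.102 for Hmox1, -0.024 for Ireb2 and -0.032 for Aco1, O-re versus O gave 0.007 for Ncoa4, and the difference was -0.452 for Slc40a1. Within numbers 1 to 11, Slc11a2 was at 0.201 in O versus Y, -0.033 in O-re versus O and 0.168 in O-re versus Y, and Aco1 at 0.001 in O versus Y. Within 12 to 24, Ncoa4 was at -0.074 in O versus Y, 0.021 in O-re versus O and -0.053 in O-re versus Y, Ireb2 at -0.025 and Aco1 at -0.04 in Y-re versus Y, and Slc40a1 at -0.817 for the difference. Slc11a2 was at 0.024 in O-re versus Y-re without the 3 libraries low in microglia markers, an alternative chosen after seeing the data.

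When single libraries were left out, signs turned for Ncoa4 in O versus Y (-0.017 to 0.056), O-re versus O (-0.046 to 0.028) and O-re versus Y (-0.033 to 0.055). They also turned in O-re versus O for Fth1 (-0.05 to 0.283) and Ftl1 (-0.003 to 0.244), and in Y-re versus Y for Slc11a2 (-0.249 to 0.035), Ireb2 (-0.046 to 0.056) and Aco1 (-0.011 to 0.103). The remaining ones were Ireb2 in O-re versus Y (-0.017 to 0.066) and O-re versus Y-re (-0.026 to 0.095), Slc11a2 in O-re versus Y-re (-0.153 to 0.112), and Slc40a1 for the difference (-0.144 to 0.297).

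Over all genes, the number called ranged over the alternatives from 1 to 2691 in O versus Y (530 with all libraries), 0 to 2187 in O-re versus O (52), 33 to 2574 in Y-re versus Y (251), 2 to 7068 in O-re versus Y (2847), 0 to 6236 in O-re versus Y-re (0) and 0 to 1524 for the difference (0). Counts of the members were 601 or more in every library. No paired analysis was possible because library numbers are unique and name no pairs.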
